A study of Mus musculus with 16 samples.

Results

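The comparison described here is that of fasted liver with and without Slc25a47. It took the 4 fasted knockout and 4 fasted control libraries by their labels, 8 of the 16 in the series, and all 13905 genes with enough reads to be tested. Knockout (KO) mice carried the genotype Slc25a47hep-/-, a loss of the gene in hepatocytes, and control (WT) mice the genotype Slc25a47hep+/+. Both groups had the strain label C57BL/6 Slc25a47tm1c(EUCOMM)Hmgu, so the controls carry the conditional allele as well, and both consisted of male mice aged 9 weeks that were fasted overnight. Neither the Cre driver nor the age at which the gene was lost is given in the sources used here. Whole liver was flash-frozen, RNA was extracted with Trizol, and stranded poly(A) libraries were made from 500 ng of RNA. The other 8 libraries, of fed KO and fed WT mice of the same sex and age, entered the model and are used below for the difference between the feeding states. The labels name separate samples and say no more about how the animals were kept apart, so p-values measure the spread between these samples.

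SLC25A47 belongs to the mitochondrial carrier family, whose members move metabolites across the inner mitochondrial membrane, and it is made almost only in the liver. When mitochondria are stressed, kinases that phosphorylate the translation factor eIF2 alpha raise the translation of the transcription factor ATF4. ATF4 then turns on genes of amino acid synthesis and uptake, tRNA charging and the secreted hormones FGF21 and GDF15, a programme known as the integrated stress response. In a fast the liver releases fatty acids to oxidation and ketone synthesis, makes glucose from lactate and amino acids, and clears the amino nitrogen as urea.

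Fasted libraries held 19.8 to 24.8 M reads assigned to genes in WT and 22.5 to 24.1 M in KO. Reads aligned to more than 1 place made up 40.4% to 45.7% of all counts in WT and 32.2% to 34.8% in KO, with no overlap. A marker list of the pancreatic acinar cell summed to 2249 and 624 CPM (read counts scaled to the library size) in WT libraries 2 and 4, to 51.0 in WT library 3 and 95.1 in KO library 1, and to 5.51 to 8.65 in the other 4. Acute phase transcripts were high in WT libraries 1 and 2. Saa1, an acute phase apolipoprotein, stood at 6369, 3145, 20.4 and 24.9 CPM in WT libraries 1 to 4 and at 85.7, 108, 9.90 and 9.79 in KO, and the summed acute phase list was 78538, 53846, 33155 and 35846 CPM in WT. Many counts below are therefore also given without WT libraries 2 and 4 (the first pair) and without WT libraries 1 and 2 (the second pair). The part that either set of transcripts has in other results was not tested.

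Slc25a47 itself lies on chromosome 12 of GRCm38 from 108836046 to 108856815. Its level was 914, 1139, 890 and 855 CPM in the WT libraries and 331, 315, 237 and 163 CPM in the KO libraries. Every KO library was below every WT library, and the remaining signal was lowest in KO library 4. The fold change on the log2 scale was -1.86 ± 0.25 (SE, edgeR adjusted p = 8.1e-05), a 3.63-fold fall. Counts are per gene, so exons inside and outside the deleted stretch are not separated, and bulk liver holds cells other than hepatocytes.

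Loss of the carrier was accompanied by broad changes in the fasted liver. Of 13905 genes, 3929 passed an adjusted p of 0.05 (28.3%), with 1918 higher in KO (13.8%) and 2011 lower (14.5%). At least 2-fold changes were fewer, with 441 genes higher (3.17%) and 268 lower (1.93%). The 4 KO and 4 WT libraries did not overlap for 29.5% of all genes. Without WT libraries 2 and 4 the model called 3197 genes (22.3%; 10.9% higher and 11.4% lower), of which 2783 were called in the same direction with all libraries. Without WT libraries 1 and 2 it called 2367 (16.5%; 7.87% higher and 8.64% lower), of which 2261 were shared. Those 2 settings have fewer libraries. The first principal component of the 8 fasted libraries held 55.0% of the variance and separated KO from WT, and the second held 14.4%. The direction of small changes depends on the scaling between libraries. With scaling by library totals alone, the median log2 fold change of all genes moved from 0.01 to 0.20, and 4301 genes were called higher and 902 lower. In bulk liver, fewer cells of a type and less RNA per cell cannot be told apart, and this holds for every list below.

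Genes of the integrated stress response are described first. The amino acid response element bound by ATF4 was searched in promoters as TGATGCAA on both strands (its reverse complement is TTGCATCA). The window ran from 250 bases before to 50 after the RefSeq gene start, on GRCm38.p6. The element was found in 294 of 32851 promoters (0.895%) and in 86 of 10446 promoters of all genes tested (0.823%). It stood in 12 of 303 promoters of genes at least 2-fold higher in KO (3.96%) and in 1 of 180 of genes at least 2-fold lower (0.556%). For all genes called higher and lower the counts were 23 of 1470 (1.56%) and 5 of 1536 (0.326%). In the list of the integrated stress response 7 of 30 promoters held it, namely those of Atf3, Chac1, Fgf21, Nupr1, Pycr1, Slc7a11 and Vldlr. The list was written from general knowledge of the response, so this share is not a result of these data. A match is a description of letters and not evidence of binding. The 200 bases before the start are shown for 4 of these genes, since they carry the element and are described next; capitals mark the element.
Fgf21, chr7:45615491-45615690, minus strand: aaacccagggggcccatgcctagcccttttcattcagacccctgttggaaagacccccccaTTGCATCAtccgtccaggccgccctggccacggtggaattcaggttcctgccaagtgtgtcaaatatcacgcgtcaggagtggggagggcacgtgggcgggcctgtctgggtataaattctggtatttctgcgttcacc
Nupr1, chr7:126625471-126625670, minus strand: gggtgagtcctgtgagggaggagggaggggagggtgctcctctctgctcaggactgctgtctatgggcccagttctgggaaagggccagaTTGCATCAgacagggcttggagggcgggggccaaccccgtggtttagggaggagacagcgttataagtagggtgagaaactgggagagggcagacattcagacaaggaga
Atf3, chr1:191183334-191183533, minus strand: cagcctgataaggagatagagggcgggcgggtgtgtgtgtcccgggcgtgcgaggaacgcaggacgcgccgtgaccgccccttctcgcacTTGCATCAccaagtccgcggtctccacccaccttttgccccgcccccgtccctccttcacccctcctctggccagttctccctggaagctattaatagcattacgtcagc
Chac1, chr2:119351042-119351241, plus strand: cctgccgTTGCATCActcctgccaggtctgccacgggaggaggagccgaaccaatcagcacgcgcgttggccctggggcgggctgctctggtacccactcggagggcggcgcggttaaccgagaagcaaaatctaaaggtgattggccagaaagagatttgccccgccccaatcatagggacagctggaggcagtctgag
In all 4 the element is present as its reverse complement. Its first base lies 139 bases before the start in Fgf21, 110 in Nupr1 and in Atf3, and 193 in Chac1.

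Of 31 tested genes in the integrated stress response list, 25 rose in fasted KO liver and 1 fell, against 13.8% and 14.5% of all genes, and their median log2 fold change was 1.86 against 0.01. Fgf21, the hormone gene, was at 7.59, 11.9, 14.7 and 11.7 CPM in WT and at 114, 102, 165 and 166 CPM in KO. No KO library came near a WT library. The rise was 3.57 ± 0.37 on the log2 scale (SE, n = 4 libraries a group, edgeR adjusted p = 2.2e-05), or 11.9-fold. Trib3, a pseudokinase that restrains ATF4, stood at 12.9, 11.6, 12.6 and 6.72 CPM in WT and at 140, 134, 279 and 336 CPM in KO. Nupr1, a small stress-induced chromatin protein, was at 0.902, 3.55, 0.670 and 0.827 CPM in WT and 44.0, 51.9, 88.1 and 118 CPM in KO. In both genes KO libraries 3 and 4 lay above KO libraries 1 and 2. The log2 fold change was 4.34 ± 0.40 for Trib3 (adjusted p = 8.2e-06) and 5.69 ± 0.50 for Nupr1 (adjusted p = 5.4e-06).

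The transcription factors of the response rose to different extents. Atf3 was at 1.17, 1.08, 0.848 and 1.09 CPM in WT and at 13.1, 12.5, 28.2 and 26.7 CPM in KO, again with KO libraries 3 and 4 highest. Ddit3, which encodes CHOP, rose by 3.24 ± 0.37 on the log2 scale (SE, edgeR adjusted p = 2.9e-05) and Atf5, a factor tied to mitochondrial protein stress, by 1.68 ± 0.11. Atf4 mRNA rose less, from 82.4 ± 6.2 CPM (SD, n = 4) to 136 ± 20.6 CPM, or 0.73 ± 0.10 on the log2 scale.

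Enzymes of amino acid synthesis were among the genes that rose most. Psat1, the aminotransferase of serine synthesis, was at 0.743, 1.18, 0.893 and 0.517 CPM in WT and at 16.6, 20.6, 24.1 and 29.2 CPM in KO. The groups were far apart, and the change was 4.75 ± 0.24 on the log2 scale (SE, edgeR adjusted p = 5.9e-10). Asns, asparagine synthetase, rose 12.2-fold and Aldh18a1, the first enzyme of proline synthesis, 5.61-fold. Mthfd2 of mitochondrial folate metabolism rose 4.17-fold, from a low level of 0.686 ± 0.266 CPM (SD, n = 4). Slc3a2, the shared heavy chain of several amino acid exchangers, rose 4.44-fold and Slc7a1, a cationic amino acid transporter, 7.36-fold. Gdf15, the second stress hormone, rose 3.80-fold (from 5.12 ± 2.56 to 19.4 ± 3.86 CPM, SD, n = 4). Shmt2, mitochondrial serine hydroxymethyltransferase, was the only called member that fell, by 0.30 ± 0.07 on the log2 scale, and this call was absent without WT libraries 2 and 4. Without those libraries 24 members were called higher, and without WT libraries 1 and 2, 25.

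**Figure D1:**
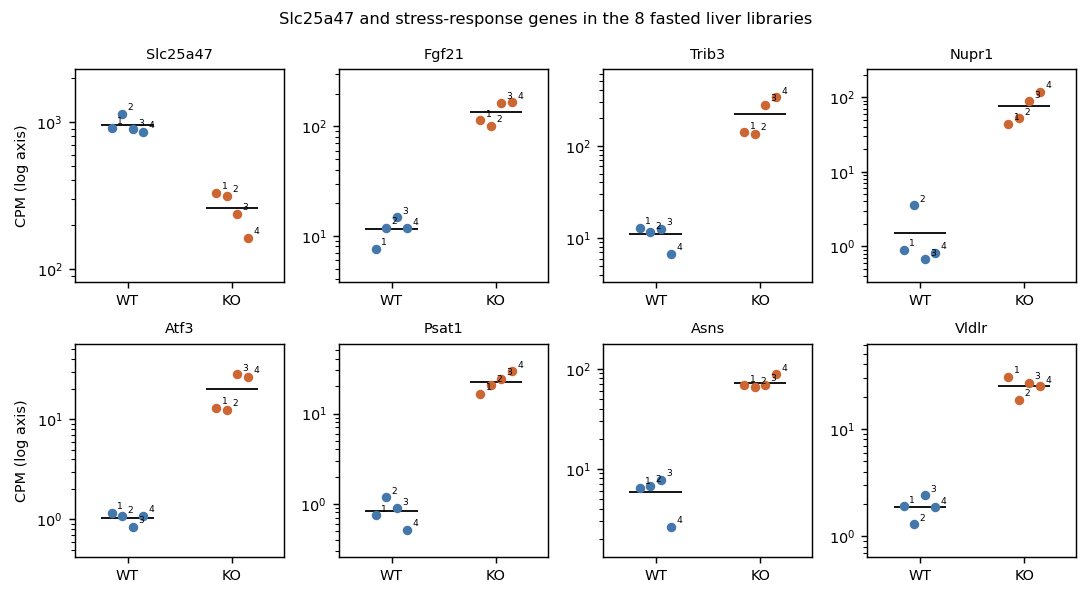
Levels of 8 genes in each fasted library (y axis, CPM on a log axis; x axis, WT and KO; each point is 1 library and the bar the mean). Slc25a47 is lower and the other 7 genes are higher in every KO library than in any WT library.

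Among genes that charge tRNAs in the cytosol most of the called members rose. Of 20 tested synthetase genes, 11 rose, 1 fell and 8 did not pass, with a median log2 fold change of 0.40; 12 and 11 rose without the first and the second pair of WT libraries. Sars rose 2.22-fold, Iars 1.91-fold and Gars 1.81-fold. The 1 that fell was Wars, the tryptophanyl-tRNA synthetase, at 12.5, 12.4, 14.1 and 13.2 CPM in WT and 6.97, 6.97, 6.39 and 5.79 CPM in KO. All KO libraries were below all WT libraries, and the log2 fold change, with an SE of 0.11, rounds to -1 (edgeR adjusted p = 3.7e-06). Wars lies on chromosome 12 from 108860030 to 108894174, 3.2 kb beyond the end of Slc25a47. Of 9 tested genes around Slc25a47, Meg3 and Rian rose and Wars and Cyp46a1 fell. Neither rise was called without WT libraries 2 and 4, Rian lost its call without any one of KO libraries 2 and 3 and WT libraries 2 to 4 (adjusted p up to 0.11), and the adjusted p of Cyp46a1 was 0.057 without WT library 3. Whether the allele or the loss of the carrier goes with the level of Wars was not tested.

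Of 17 tested chaperones and proteases of the mitochondrion, 4 rose and 0 fell, against 13.8% and 14.5% of all genes, and the median log2 fold change was 0.10. Without WT libraries 2 and 4, 3 rose and 1 fell, and 11 rose under scaling by library totals. Lonp1, the main matrix protease, was at 94.2, 103, 110 and 118 CPM in WT and 256, 246, 264 and 322 CPM in KO. The groups did not overlap, and the rise was 1.36 ± 0.11 on the log2 scale (SE, edgeR adjusted p = 6.4e-08). Hspa9, the matrix HSP70, rose 1.73-fold and its partner Dnaja3 1.71-fold. Hspd1, the matrix chaperonin HSP60, rose by 0.30 on the log2 scale, and this call was lost without either pair of WT libraries.

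Genes that break down amino acids went the other way. Of 39 tested genes for breaking down amino acids and making urea, 22 fell and 0 rose, with a median log2 fold change of -0.32; 22 were called lower without WT libraries 2 and 4 and 20 without WT libraries 1 and 2, and under scaling by library totals 17 fell and 6 rose. Asl, argininosuccinate lyase of the urea cycle, was at 1268, 1187, 1221 and 930 CPM in WT and 746, 625, 453 and 468 CPM in KO. Hgd, which opens the ring of homogentisate in tyrosine breakdown, was at 1034, 1094, 1079 and 1014 CPM in WT and 682, 636, 472 and 404 CPM in KO. Neither gene overlapped between the groups, and in both KO libraries 3 and 4 were lowest. The log2 fold change was -1.01 ± 0.17 for Asl (SE, edgeR adjusted p = 0.00039) and -0.94 ± 0.12 for Hgd. Arg1 (arginase), Otc (ornithine transcarbamylase) and Cps1 (carbamoyl phosphate synthetase) fell 1.73-fold, 1.66-fold and 1.45-fold. Tdo2, which commits tryptophan to the kynurenine route, fell 1.56-fold, and Oat, ornithine aminotransferase, 1.56-fold.

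Related lists were mixed. Of 25 serine and one-carbon genes 11 fell and 5 rose; 9 fell without WT libraries 2 and 4 and 8 without WT libraries 1 and 2, and under scaling by library totals 7 rose and 6 fell. Bhmt, which remethylates homocysteine with betaine, fell 2.24-fold (from 6733 ± 1567 to 3001 ± 571 CPM, SD, n = 4). Of 20 genes of NAD metabolism 7 fell and 0 rose, against 14.5% and 13.8% of all genes; 6 fell without WT libraries 2 and 4 and 4 without WT libraries 1 and 2, and under scaling by library totals 5 fell and 2 rose. Slc25a51, the mitochondrial NAD carrier, was at 113, 132, 102 and 134 CPM in WT and 75.2, 80.4, 55.9 and 53.7 CPM in KO. Its fall was 0.86 ± 0.17 on the log2 scale (SE, edgeR adjusted p = 0.0017) with no overlap. Nampt, the rate-limiting enzyme of NAD salvage, fell 1.41-fold, Qprt of the route from tryptophan 1.44-fold, and the mitochondrial NAD kinase Nadk2 1.35-fold. Among 19 amino acid transporters 7 rose and 4 fell. The risers included Slc3a2 and Slc7a1, and Slc7a2 and Slc38a4, the abundant carriers for cationic and neutral amino acids in hepatocytes, fell 1.75-fold and 1.37-fold.

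Zonal markers of the hepatocyte were compared next. Of 14 periportal genes 10 fell and 1 rose, with a median log2 fold change of -0.59; 10 fell without WT libraries 2 and 4 and 8 without WT libraries 1 and 2. Pigr, the immunoglobulin receptor, was at 1298, 1043, 1315 and 1463 CPM in WT and 651, 638, 592 and 428 CPM in KO. The groups were separate, at -1.15 ± 0.14 on the log2 scale (SE, edgeR adjusted p = 1.4e-05). Etnppl, a phospholyase, fell 3.01-fold and the periportal cytochrome Cyp2f2 1.71-fold. Several periportal genes (Arg1, Cps1, Hal, Sds, Gls2) also stand in the list of amino acid breakdown. Of 17 pericentral genes 6 fell and 3 rose, with a median of -0.11; 4 fell and 1 rose without either pair of WT libraries, and 4 rose and 3 fell under scaling by library totals. Glul, glutamine synthetase of the cells around the central vein, averaged 900 ± 32.2 CPM in WT against 727 ± 76.0 CPM in KO (SD, n = 4), and its call was absent without either pair of WT libraries. The difference between the 2 zones was not tested.

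Genes of glucose and ketone production came next. Of 12 gluconeogenic genes 6 fell and 1 rose; 2 fell without WT libraries 2 and 4 and 2 without WT libraries 1 and 2, and 3 fell without WT library 1, WT library 2 or KO library 3. Pck1, the cytosolic PEP carboxykinase that paces gluconeogenesis, was at 5259, 5704, 5008 and 5594 CPM in WT and 3770, 3706, 3203 and 3374 CPM in KO. It was lower in every KO library, by 0.62 ± 0.13 on the log2 scale (SE, edgeR adjusted p = 0.0018). G6pc, the last step of glucose release, averaged 913 ± 205 CPM in WT against 768 ± 53.5 CPM in KO (SD, n = 4, adjusted p = 0.36), with overlapping libraries. Of 25 fatty acid oxidation genes 4 fell and 0 rose, against 14.5% and 13.8% of all genes. The share that fell was thus near that of all genes. Without the first and the second pair of WT libraries 2 and 3 fell. Acsl1, which activates long-chain fatty acids, fell 1.35-fold, and Cpt1a, the carnitine transferase that admits them to the mitochondrion, averaged 1086 ± 85.4 CPM in WT against 1136 ± 65.3 CPM in KO (adjusted p = 0.59). Scaling by library totals turned this list to 4 higher and 1 lower. Of the 6 ketone genes 1 passed, Slc16a6, which rose from 6.33 ± 1.16 to 16.8 ± 7.15 CPM. Of the 6, 1 was called higher without WT libraries 2 and 4 and 0 without WT libraries 1 and 2.

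Among 22 targets of PPAR alpha, the fatty acid sensor of the fasted liver, 4 rose and 2 fell. Shares among all genes were 13.8% and 14.5%. Only Fgf21 and Acot2, a mitochondrial acyl-CoA thioesterase, were called higher without WT libraries 2 and 4, and leaving out WT library 2, WT library 4, KO library 2 or KO library 3 alone also left 2. Acot2 stood at 10.3, 17.0, 27.6 and 24.4 CPM in WT and 84.2, 91.1, 94.4 and 108 CPM in KO, a 4.75-fold rise with no overlap. Cyp4a14, the fatty acid hydroxylase often used as a marker of the receptor, was at 9154, 11787, 11913 and 11626 CPM in WT and 11777, 10249, 11228 and 10554 CPM in KO. The libraries overlapped, and the log2 fold change was -0.02 ± 0.51 (SE, adjusted p = 0.98).

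Genes of fat and sterol synthesis leaned upward. Of 19 fatty acid synthesis genes 8 rose and 0 fell, with a median log2 fold change of 0.34; 6 rose without WT libraries 2 and 4, 4 without WT libraries 1 and 2, and 5 without WT library 1 alone. Mlxipl, which encodes the carbohydrate sensor ChREBP, rose 1.46-fold, and Fads2, a desaturase, 1.44-fold. Pklr, liver pyruvate kinase, rose 1.59-fold. Srebf1 averaged 26.9 ± 3.88 CPM in WT against 18.9 ± 2.57 CPM in KO (SD, n = 4, adjusted p = 0.079). Of 25 cholesterol synthesis genes 8 rose and 3 fell, and 6 and 7 rose without the first and the second pair of WT libraries. Sqle, squalene epoxidase, was at 9.02, 15.1, 15 and 4.08 CPM in WT and 31.7, 30.3, 26.7 and 27.8 CPM in KO, a 2.69-fold rise, and Lss, the next enzyme, rose 2.13-fold. Ebp, a later sterol isomerase, fell 1.55-fold.

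Of 20 genes of lipid droplets and lipolysis 6 rose and 4 fell, with a median log2 fold change of 0.04; 3 rose and 2 fell without either pair of WT libraries, and 9 rose and 1 fell under scaling by library totals. It holds the lipid uptake genes Cd36 and Vldlr. Cd36, the fatty acid translocase, was at 46.97, 47.8, 57.6 and 51.1 CPM in WT and 246, 227, 248 and 188 CPM in KO. The groups were far apart, at 2.16 ± 0.14 on the log2 scale (SE, edgeR adjusted p = 1.2e-08). Vldlr, the receptor for very low density lipoprotein, rose from 1.87 ± 0.458 to 25.3 ± 4.97 CPM (SD, n = 4), or 13.4-fold. Of 20 lipoprotein genes 9 fell and 1 rose; 7 and 6 fell without the first and the second pair of WT libraries, and 4 fell and 2 rose under scaling by library totals. The falls included 1.70-fold for Apoa1, the core protein of high density lipoprotein, and 1.25-fold for Apob (adjusted p = 0.18 under scaling by library totals). Of 23 bile acid genes 8 fell and 3 rose; 7 fell and 2 rose without WT libraries 2 and 4, 6 fell and 1 rose without WT libraries 1 and 2, and under scaling by library totals 6 rose and 4 fell. Cyp8b1, which directs synthesis to cholic acid, was at 1148, 1257, 1408 and 889 CPM in WT and 529, 500, 477 and 340 CPM in KO, a 2.55-fold fall without overlap. Cyp7a1, the rate-limiting enzyme, was 164 ± 156 CPM in WT, where library 3 stood at 394 CPM, and 90.0 ± 30.8 CPM in KO (adjusted p = 0.31). Abcc4, a basolateral exporter of bile acids, rose 5.07-fold.

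Respiratory chain genes fell by small amounts and cytosolic ribosomal protein genes rose by small amounts. Of 72 nuclear genes of the respiratory complexes 33 fell and 0 rose, with a median log2 fold change of -0.23; 24 fell without WT libraries 2 and 4, 25 without WT libraries 1 and 2, and 15 fell under scaling by library totals, where the median was -0.04. Ndufa5 of complex I was at 38.4, 38.5, 37.6 and 40.2 CPM in WT and 29.3, 26.5, 23.4 and 27.0 CPM in KO. The WT libraries lay close together and above all KO libraries, and the fall was 0.54 ± 0.07 on the log2 scale (SE, edgeR adjusted p = 1.4e-05). Sdhd of complex II fell by 0.59 on the log2 scale and Cox6b1 of complex IV 1.52-fold. Of 13 protein genes of the mitochondrial genome 7 were tested and 5 of these fell; mt-Nd2 averaged 12472 ± 502 CPM in WT against 8607 ± 613 CPM in KO (SD, n = 4). In the tricarboxylic acid cycle 8 of 18 genes fell and 3 rose, 5 fell without WT library 3 or KO library 3, 5 and 6 fell without the first and the second pair of WT libraries, and 2 fell and 6 rose under scaling by library totals. Cs, citrate synthase, was among the risers, at 97.0, 114, 131 and 118 CPM in WT and 181, 201, 250 and 329 CPM in KO, with KO library 4 highest. Its rise was 1.06 ± 0.14 on the log2 scale (SE, edgeR adjusted p = 4.0e-05).

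Of 79 tested genes of the cytosolic ribosome 61 rose and 0 fell, with a median log2 fold change of 0.35, and 47 and 49 rose without the first and the second pair of WT libraries. Rpl12 was at 46.4, 45.6, 48.0 and 39.3 CPM in WT and 79.5, 76.3, 76.1 and 83.5 CPM in KO, a 1.76-fold rise with no overlap. Ribosomal protein genes have many near-identical processed copies, and the share of reads aligned to more than 1 place differed between the groups, as given above; its part in these counts was not tested. Genes of the mitochondrial ribosome showed a median of 0.00, with 13 higher and 7 lower of 77, against 13.8% and 14.5% of all genes. These counts moved with single libraries, from 7 to 14 higher and from 2 to 7 lower. Leaving out KO library 1, KO library 4 or WT library 1 left 7 higher, KO library 2 left 4 lower and KO library 3 left 2 lower. Without WT libraries 2 and 4 the counts were 9 higher and 3 lower, without WT libraries 1 and 2 they were 3 and 1, and under scaling by library totals 35 were higher and 1 lower. Of 40 other mitochondrial carriers 5 rose and 8 fell, against 13.8% and 14.5% of all genes. Without WT libraries 1 and 2, 5 carriers fell, and under scaling by library totals 7 rose and 3 fell. Among them Slc25a33, a pyrimidine nucleotide carrier, rose 1.89-fold.

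**Figure D2:**
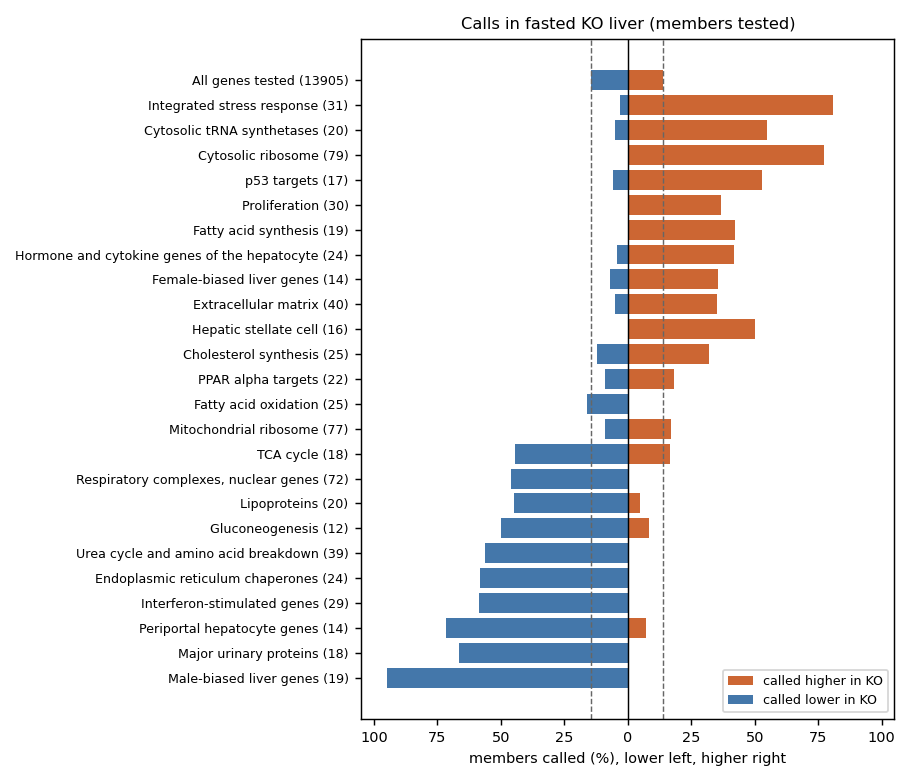
Share of tested members called higher (right) and lower (left) in fasted KO liver for 24 gene lists and for all genes (x axis, percent; number of tested members in brackets). Dashed lines mark the shares among all genes, 13.8% higher and 14.5% lower; the integrated stress response, cytosolic ribosome, amino acid breakdown and male-biased lists lie far outside them.

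The sex-biased programme of the liver changed strongly. Pituitary growth hormone, released in pulses in males, keeps male-biased genes on and female-biased genes off. Of 19 male-biased genes 18 fell and 0 rose, with a median log2 fold change of -1.88, and 17 fell without either pair of WT libraries. Cyp7b1, a steroid hydroxylase, was at 415, 338, 291 and 273 CPM in WT and 40.7, 55.7, 53.6 and 19.4 CPM in KO. All KO libraries lay far below all WT libraries, at -2.96 ± 0.36 on the log2 scale (SE, edgeR adjusted p = 6.8e-05). Serpina1e, a male-biased antitrypsin, fell from 10052 ± 1578 to 1821 ± 943 CPM (SD, n = 4), Selenbp2 9.21-fold, and Elovl3, a fatty acid elongase, 3.80-fold. In 15 of the 18 genes that fell KO library 4 was lowest, with Serpina1e at 638 CPM and Selenbp2 at 3.57 CPM there. Moxd1 was at 55.5, 39.9, 3.80 and 4.91 CPM in WT and between 0.0420 and 0.284 CPM in KO, so its WT libraries were themselves split.

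Major urinary proteins, the pheromone carriers secreted by male liver, fell with them. The summed level of the list averaged 26020 ± 3471 CPM in WT against 5703 ± 1562 CPM in KO (SD, n = 4), and 12 of 18 tested genes fell. Mup3 was at 11669, 9588, 10909 and 10894 CPM in WT and 2665, 3281, 2874 and 2252 CPM in KO, a 3.89-fold fall. These genes are near-identical copies and reads may be split among them, so the sum is the safer value; Mup1, Mup12, Mup20 and Mup21 also stand in the male-biased list.

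Among 14 tested female-biased genes 5 rose and 1 fell. Cyp2b9, a steroid-hydroxylating cytochrome, was at 0.212, 0.108, 0.268 and 0.0517 CPM in WT and at 33.1, 30.6, 94.9 and 82.8 CPM in KO. Cyp2a4 was at or below 0.323 CPM in every WT library and between 20.9 and 35.9 CPM in KO. Cyp3a41a had 0 reads in each WT library and 43, 40, 106 and 100 reads in the KO libraries, at least 19.3-fold higher against a floor of 3 reads per WT library. For Cyp2b9 and Cyp3a41a KO libraries 3 and 4 were highest, whereas Cyp2a4 did not follow that order. Fmo2 fell, by 0.70 ± 0.19 on the log2 scale (SE, edgeR adjusted p = 0.011), a call absent without WT libraries 1 and 2. The cytochromes have close paralogs, which limits the assignment of reads to each.

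Of 17 genes of the growth hormone and IGF1 axis 4 fell and 2 rose, against 14.5% and 13.8% of all genes, with a median log2 fold change of 0.02. Ghr, the growth hormone receptor, was at 385, 337, 335 and 332 CPM in WT and 226, 242, 228 and 191 CPM in KO, a 1.57-fold fall with no overlap. Igf1, its main secreted product, fell 1.54-fold and Igfals, which stabilises IGF1 in blood, fell by 0.58 on the log2 scale. Igfbp1, a binding protein that insulin represses and ATF4 can induce, rose from 374 ± 117 to 1056 ± 236 CPM (SD, n = 4), or 2.82-fold. Stat5b, the transcription factor below the receptor, was 54.1 ± 2.62 and 56.3 ± 5.13 CPM (adjusted p = 0.68), and the STAT5 target Socs2 and the repressor Bcl6 overlapped between the groups (adjusted p = 0.63 and 0.98). Of targets of the xenobiotic receptors CAR and PXR 4 of 18 rose and 7 fell; 4 fell without KO library 3, and under scaling by library totals 6 rose and 4 fell. Cyp2b10, the classic CAR target, was at 1.86, 5.27, 3.04 and 6.56 CPM in WT and 17.8, 22.1, 41.3 and 112 CPM in KO, with KO library 4 far above the rest. Cyp3a11 rose 3.82-fold, whereas Cyp2c54 fell 1.98-fold and Cyp2c50 1.87-fold.

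Genes of proteins that hepatocytes secrete as signals rose more often than they fell, 10 against 1 of 24. Serpina7, thyroxine-binding globulin, was at 3.45, 2.48, 5.09 and 2.12 CPM in WT and 198, 225, 266 and 276 CPM in KO. The change of 6.18 ± 0.31 on the log2 scale (SE, edgeR adjusted p = 1.6e-08), or 72.6-fold, was the largest of this list. Ahsg, fetuin A, rose 1.71-fold from 8216 ± 492 CPM (SD, n = 4) and gained the most CPM among called genes whose libraries did not overlap, predicted genes and pseudogenes left out. The activin subunits Inhba and Inhbe rose 2.40-fold and 2.65-fold. Serpina12, vaspin, was the 1 that fell, 6.40-fold.

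Chaperones of the endoplasmic reticulum, which are induced by unfolded protein stress, fell. Of 24 genes 14 fell and 0 rose, with a median log2 fold change of -0.51. The stress response element of these genes was searched as CCAAT and CCACG separated by 9 bases, on both strands, in the same windows; it stood in 39 of 32851 promoters (0.119%) and in 8 of 19 promoters of the list (42.1%), those of Calr, Canx, Creld2, Dnajc3, Hsp90b1, Hspa5, Pdia6 and Syvn1. The chaperone list was also written from general knowledge, so its share is not a result of these data. The stress response element stood in 0 of 303 promoters of genes at least 2-fold higher in KO and 0 of 180 at least 2-fold lower. It stood in 2 of 1470 promoters of genes called higher (0.136%) and in 7 of 1536 of genes called lower (0.456%). Among all genes tested the share was 19 of 10446 (0.182%). Of the chaperone list, 1 promoter of 19, that of Herpud1, held the ATF4 element. In the integrated stress response list 0 of 30 held the chaperone element. The bases before 3 starts are shown, with this element in capitals. These 3 genes were picked from the 8 carriers as genes that fell. Dnajc3 and Syvn1 carry the element too but were not called, with KO levels 0.865 and 0.894 times those of WT.
Hspa5, chr2:34771890-34772089, plus strand: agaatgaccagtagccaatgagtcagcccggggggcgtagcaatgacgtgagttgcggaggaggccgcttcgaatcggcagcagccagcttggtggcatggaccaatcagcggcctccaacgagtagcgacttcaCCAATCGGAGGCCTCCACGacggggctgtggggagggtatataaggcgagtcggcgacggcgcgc
Calr, chr8:84846932-84847131, minus strand: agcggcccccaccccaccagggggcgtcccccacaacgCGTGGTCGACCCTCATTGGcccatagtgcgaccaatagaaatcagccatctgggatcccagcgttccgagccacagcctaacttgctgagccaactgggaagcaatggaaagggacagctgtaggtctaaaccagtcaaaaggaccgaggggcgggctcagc
Pdia6, chr12:17266389-17266588, plus strand: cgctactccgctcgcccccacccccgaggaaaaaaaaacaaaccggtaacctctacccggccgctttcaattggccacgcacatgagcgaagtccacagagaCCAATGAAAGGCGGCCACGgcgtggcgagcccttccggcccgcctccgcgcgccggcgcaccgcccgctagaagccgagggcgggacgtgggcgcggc
The element begins 65 bases before the start in Hspa5, 162 in Calr, where it is the reverse complement, and 98 in Pdia6.

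Levels of these chaperones in WT followed the libraries with pancreatic transcripts. Calr, calreticulin, was at 422, 581, 438 and 535 CPM in WT and 256, 299, 260 and 289 CPM in KO, so WT libraries 2 and 4 were highest and all KO libraries lowest. Its fall was 0.84 ± 0.11 on the log2 scale (SE, edgeR adjusted p = 1.4e-05). Pdia3, a disulfide isomerase, fell 1.72-fold and Hsp90b1 1.53-fold, both without overlap. Hspa5, the lumenal HSP70 known as BiP, was at 586, 730, 543 and 854 CPM in WT and 425, 548, 480 and 501 CPM in KO, and the groups overlapped. Its fall of 0.47 ± 0.15 had an adjusted p of 0.021 with all libraries, 0.050 to 0.080 without WT library 2 or 4 or KO library 1 or 3, and 0.35 without WT libraries 2 and 4. Without those 2 libraries 9 of the genes were called lower and 1 higher and the median was -0.35, and without WT libraries 1 and 2, 11 were lower and the median was -0.54. Manf and Sdf2l1 also lost their calls without WT libraries 2 and 4. Hyou1 and Creld2 lost theirs without either pair and without most single libraries (adjusted p up to 0.15). The part of pancreatic transcripts in the difference was not tested.

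**Figure D3:**
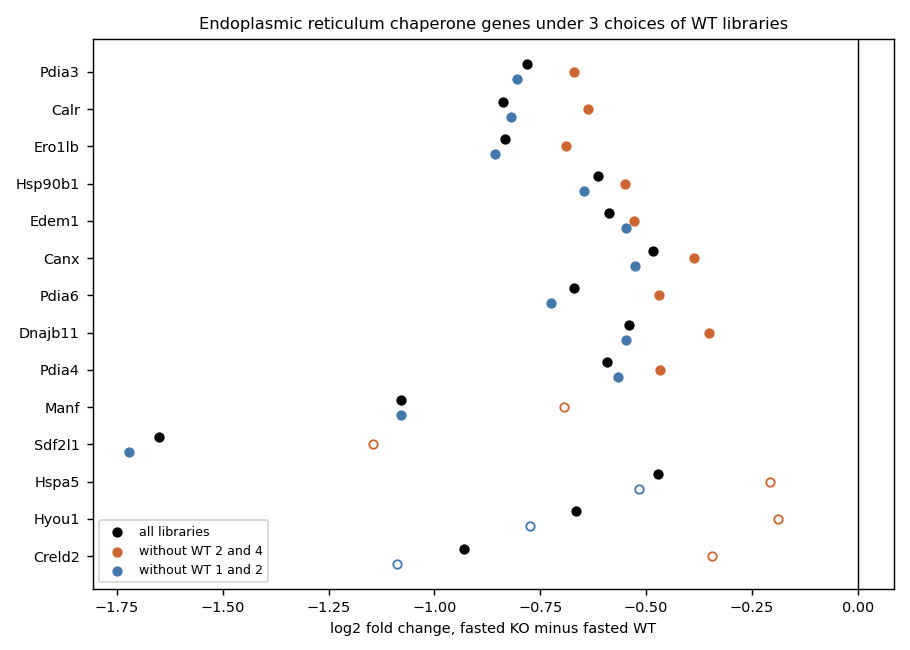
Log2 fold change in fasted KO liver (x axis) of 14 endoplasmic reticulum genes (y axis). Values are given with all libraries, without WT libraries 2 and 4 and without WT libraries 1 and 2, and open symbols were not called. The 14 were chosen as the members of the list of 24 called lower with all libraries, and the others are not shown. Pdia3 and Calr stay called under all 3 choices, and Hspa5, Hyou1 and Creld2 only with all libraries.

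Marker genes of other cells were compared for the same reason. Of 28 pancreatic acinar markers 20 were tested and 9 fell, with a median log2 fold change of -4.94, and 0 of them were called without WT libraries 2 and 4. Single libraries also moved this count, to 3 without WT library 2 or KO library 4, to 4 and 5 without KO libraries 3 and 2, to 15 without KO library 1 and to 17 without WT library 1. No marker of the pancreatic endocrine cell had enough reads to be tested. Of 16 stellate cell markers 8 rose and 0 fell (5 and 6 rose without the first and the second pair of WT libraries), with summed levels of 312 ± 8.42 CPM in WT and 406 ± 4.85 CPM in KO (SD, n = 4). Reln rose 1.38-fold and Pdgfra, a receptor for platelet-derived growth factor, 1.49-fold. Of 12 lymphocyte and neutrophil markers and of 8 bile duct markers 0 were called in either direction. Of 20 macrophage markers 4 rose, against 13.8% of all genes. That count fell to 1 or 2 without any one of the WT libraries or of KO libraries 1 to 3. Cd9 was the 1 called without WT libraries 2 and 4. Of 23 hepatocyte markers 13 fell and 3 rose; without WT libraries 1 and 2, 4 fell and 2 rose, and under scaling by library totals 3 fell and 5 rose. Alb ranged from 56191 to 99880 CPM in WT, with libraries 1 and 2 lowest, and from 80985 to 96507 CPM in KO (adjusted p = 0.39).

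Matrix genes rose modestly. Of 40 extracellular matrix genes 14 rose and 2 fell, with a median log2 fold change of 0.24; 8 rose without WT libraries 2 and 4 and 13 without WT libraries 1 and 2. The basement membrane collagen Col4a1 was at 30.7, 36.7, 35.6 and 34.6 CPM in WT and 64.4, 64.7, 69.8 and 87.9 CPM in KO. All KO libraries lay above all WT libraries, at 1.06 ± 0.11 on the log2 scale (SE, edgeR adjusted p = 3.2e-06), and its partner Col4a2 rose 2.23-fold.

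Interferon-stimulated genes fell. Of 29 tested genes 17 fell and 0 rose, with a median log2 fold change of -0.54; 13 and 17 fell without the first and second pair of WT libraries, and 11 without KO library 4. Irgm1, an immunity-related GTPase, was at 52.5, 50.9, 64.4 and 68.1 CPM in WT and 33.2, 31.9, 32.5 and 26.5 CPM in KO. There was no overlap, and the fall was 0.93 ± 0.14 on the log2 scale (SE, edgeR adjusted p = 0.00014). Ifit1 fell 2.89-fold. Of 22 acute phase genes 7 fell and 1 rose, and none of the falls remained called without WT libraries 1 and 2, where 2 rose and 0 fell. Leaving out single libraries gave 3 to 11 falls: 3 without WT library 1 or 2 or KO library 2 or 3, 4 without KO library 4 and 11 without fed WT library 2. Apcs, serum amyloid P, rose against this pattern, at 204, 107, 57.1 and 46.6 CPM in WT and 436, 457, 601 and 619 CPM in KO.

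**Figure D4:**
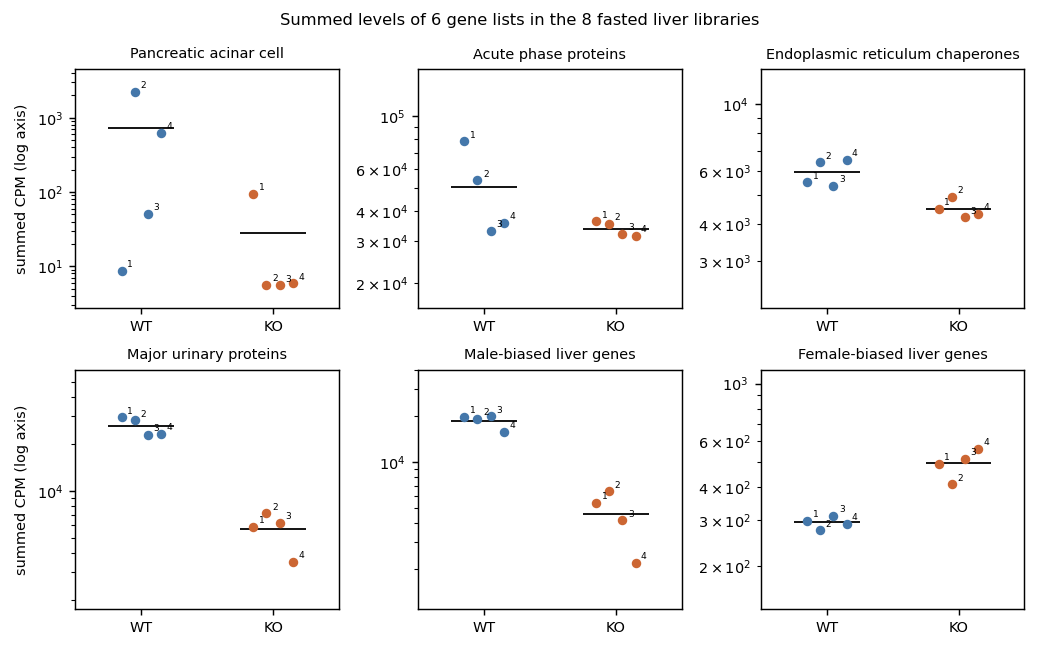
Summed CPM of 6 gene lists in each fasted library (y axis; x axis, WT and KO libraries 1 to 4). Pancreatic acinar transcripts stand out in WT libraries 2 and 4 and acute phase transcripts in WT libraries 1 and 2, while the male-biased and urinary protein lists are lower in all 4 KO libraries.

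Cell cycle and growth arrest genes both rose. Of 30 proliferation genes 11 rose and 0 fell; 5 rose without WT libraries 2 and 4, 7 without WT libraries 1 and 2, 6 without KO library 1 and 7 without KO library 3 or WT library 3. Ccnd1, cyclin D1, was at 9.55, 8.45, 11.8 and 12.2 CPM in WT and 40.5, 41.2, 35.5 and 25.3 CPM in KO, a 3.38-fold rise with no overlap. The mitotic genes were at low levels, with Aurka at 0.252 ± 0.201 CPM in WT and 1.29 ± 0.233 CPM in KO (SD, n = 4). Of 17 p53 targets 9 rose and 1 fell (8 rose without either pair of WT libraries), with a median log2 fold change of 0.65. Gadd45a, a growth arrest gene, was at 2.07, 1.08, 1.12 and 0.258 CPM in WT and 11.8, 8.02, 20.01 and 16.9 CPM in KO. The groups were separate, at 3.65 ± 0.49 on the log2 scale (SE, edgeR adjusted p = 9.9e-05), and Aen, a nuclease, rose 2.40-fold. Cdkn1a, which encodes the cell cycle inhibitor p21, rose 3.11-fold, with an adjusted p of 0.098 without WT libraries 1 and 2. Of 10 tested fetal and imprinted genes 5 rose and 1 fell. Only 1 rose and 1 fell without WT libraries 2 and 4, and 2 rose and 1 fell without WT libraries 1 and 2. The summed level of this list went the other way and was lower after the knockout, at a mean of 34.1 against 44.9 CPM. Its largest rise was that of Igf2bp3, an mRNA-binding protein of fetal liver, from 0.140 ± 0.116 to 6.53 ± 0.572 CPM.

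The largest rises reached genes that are all but silent in WT liver. Vmn2r3, a vomeronasal receptor gene, had 1, 0, 4 and 0 reads in the WT libraries and 1521, 2554, 4425 and 7111 reads in the KO libraries, with KO library 4 highest. Rap1gap2, a GTPase activator, rose from 0.703 to 40.3 CPM on average and Tenm4, a teneurin, from 0.131 to 14.1 CPM. Rhof, a small GTPase, was at 0.159, 0.269, 0.134 and 0.310 CPM in WT and 7.26, 5.95, 6.39 and 9.52 CPM in KO. Among falls outside the sex-biased lists, Tiam2, a guanine nucleotide exchange factor, went from 7.40 to 0.874 CPM. Serpina3k, a serine protease inhibitor, lost the most CPM under the same conditions, from 18632 to 8896 CPM on average.

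In fed liver the same model called 4299 genes (30.9%). The fasted and fed comparisons have no library in common. The difference between the 2 genotype effects was tested as an interaction and passed for 237 genes (1.7%), 72 without WT libraries 2 and 4 and 23 without WT libraries 1 and 2. Rhof rose in fasted liver by 5.05 ± 0.33 on the log2 scale and in fed liver by an estimated 0.96 ± 0.40 that did not pass (adjusted p = 0.075), and the difference of 4.09 ± 0.59 (SE) had an edgeR adjusted p of 0.0026. Mat1a, the methionine adenosyltransferase of adult liver, was 14146 ± 1208 CPM in fasted WT and 11652 ± 1170 CPM in fasted KO (SD, n = 4), with overlap. Its effect was -0.28 in fasted liver (adjusted p = 0.024 with all libraries, 0.067 to 0.088 without KO library 2 or 3 or WT library 3) and 0.66 in fed liver, a difference of -0.94 ± 0.13 with an adjusted p of 0.0024. Prok1 had effects in the other order, 1.22 in fasted and -1.55 in fed liver. Tuba8 rose in both, by 1.65 in fasted and by 3.84 in fed liver.

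Differences between the feeding states touched several lists above. Calr and Pdia3 fell in fasted liver and differed from the fed effect by -0.82 ± 0.15 and -0.66 ± 0.13 (adjusted p = 0.012 and 0.016), as did Oat by -0.84 ± 0.14 (adjusted p = 0.0076). Cars rose by 0.50 in fasted liver and fell by 0.38 in fed liver, and the difference of 0.88 ± 0.15 had an adjusted p of 0.0080. Chac1, a glutathione-degrading enzyme, rose by 1.86 in fasted liver and had an effect of -1.12 in fed liver, with a difference of 2.98 ± 0.54 (adjusted p = 0.014). Inhbe differed by 1.84 ± 0.33 (adjusted p = 0.017) and Serpina7 by 2.45 ± 0.37 (adjusted p = 0.0081). Cyp4a14 differed by -5.05 ± 0.77 (adjusted p = 0.012), having risen by 5.02 in fed liver. Of the genes in this paragraph Cars alone kept its interaction call in every setting run; the others lost it without 1 or both pairs of WT libraries.

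**Figure D5:**
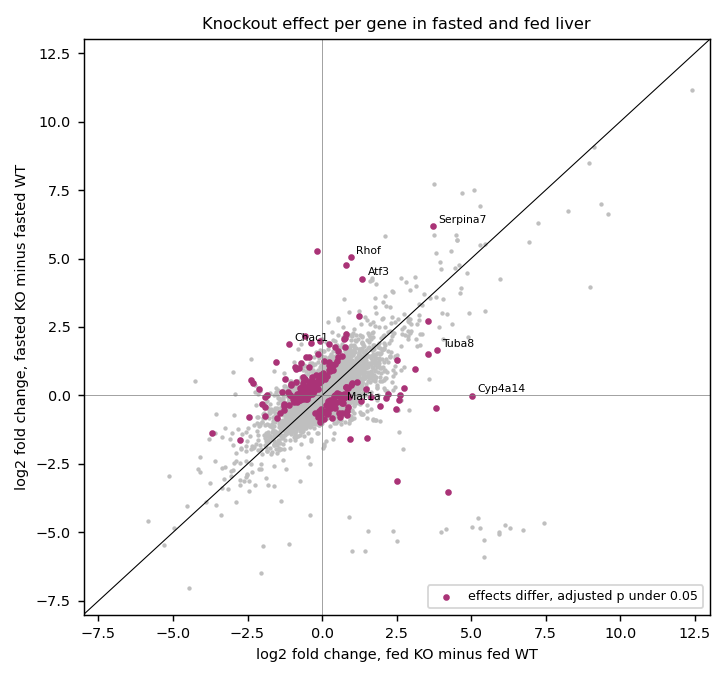
Log2 fold change of KO against WT in fed liver (x axis) and fasted liver (y axis) for each gene tested, with the 237 genes whose effects differ coloured. Rhof lies far up with a small estimate in fed liver, and Cyp4a14 lies far to the right near 0 in fasted liver.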

How the data were processed

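The submitters deposited counts, whole numbers of reads per gene for 16 libraries, which the authors did not normalize. The submitters' processing notes list cutadapt 1.8, STAR 2.5.3a, HTSeq 0.9.1 and the build GRCm38. Neither the strand setting of the counting nor the annotation release is given in the sources used here, so reads of a gene and an antisense partner may not be told apart. Lines that name no gene were left out of totals.

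Genes with low counts were removed with filterByExpr. TMM factors ran from 0.903 to 0.938 in fasted WT and from 1 to 1.067 in fasted KO. All 16 libraries entered 1 model with a coefficient per group (12 residual degrees of freedom). Tests were quasi-likelihood F tests of edgeR 4.0.16 in R 4.3.3, with Benjamini-Hochberg adjustment over 13905 genes and a threshold of 0.05. The SE of a log2 fold change was taken from that value and its F statistic. CPM values use the TMM factors. A gene is said to have risen, fallen or been called when it passed. Lists are described by counts and medians only. DESeq2 1.42.0 served as an alternative. In simulated data for fasted KO against WT (13678 genes), the test recovered 45 of 67 genes with a 1.5-fold change and 59 of 67 with a 2-fold change. It recovered 66 of 66 with a 4-fold change and called 12 unchanged genes. Only these genes were changed there, all with a mean above 1 CPM. Far fewer genes thus changed than were called in the real data, and the recovery may not carry over.

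The comparison, the gene lists, the naming rule and the alternatives were chosen with earlier results of these data known. The rule named Slc25a47 and its neighbours, the 8 largest rises and falls and the 6 largest gains and losses in CPM among called genes whose groups did not overlap, the 6 strongest interactions, a fixed set of anchor genes and up to 4 called members per list. Further list members were named after their values were seen. Leaving out WT libraries 1 and 2 was chosen after seeing the data. A few genes that the rule or the lists would name are not reported here.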

Additional observations from a re-analysis of the deposited data

Results flagged for a closer look

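For 17 of the genes named above the effect of the knockout differed between fasted and fed liver by the interaction test. The effect in fasted liver was the higher on the log2 scale by 4.09 for Rhof, 2.98 for Chac1, 2.92 for Atf3, 2.77 for Prok1, 2.45 for Serpina7, 1.84 for Inhbe, 1.18 for Inhba, 0.88 for Cars and 0.71 for Iars. It was the lower, at -5.05 for Cyp4a14, -2.19 for Tuba8, -1.53 for Fmo2, -0.94 for Mat1a, -0.92 for Cyp2c54, -0.84 for Oat, -0.82 for Calr and -0.66 for Pdia3. Rhof, Prok1, Tuba8, Mat1a and Cars kept this call in all 25 settings run, whereas Atf3 kept it in 14 and Inhba in 16.

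In 10 of 294 groups of 4 libraries a single library stood apart for a named gene; chance gives about 1 in 20. KO library 4 was high for Asns (87.8 CPM) and Hspd1 (534 CPM) and low for Apob (6094 CPM) and Mup1 (13.2 CPM). KO library 1 was low for Mthfd2, at 1.97 CPM. WT library 4 was high for Cyp2f2 (1361 CPM) and Ddit3 (6.30 CPM), WT library 2 was high for Nupr1 (3.55 CPM), and WT library 1 was high for Ghr (385 CPM) and low for Cyp4a14 (9154 CPM).

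Of 106 such groups for the summed lists, 2 had a library with a value apart, both KO library 1. It held 95.1 CPM of pancreatic acinar transcripts. Its 0.0420 CPM of pancreatic endocrine transcripts is a single read against 0 in the other KO libraries and shows nothing about that library.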

How the results depend on the processing

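Of 147 genes named in the report 134 were called, and 116 of these stayed called in the same direction under all alternatives; 0 reversed. Without fasted WT libraries 1 and 2 the count of called genes was 2367 (1128 higher, 1239 lower). Under scaling by library totals it was 4301 higher and 902 lower. Leaving out 1 library at a time gave 3036 (without fasted KO library 4) to 4078. The count of interactions was the least stable: 237 with all libraries, 72 without fasted WT libraries 2 and 4, 23 without fasted WT libraries 1 and 2, 529 by DESeq2, and 87 (without fasted KO library 3) to 523 (without fed KO library 2) when 1 library was left out; the cause was not tested. With the replicate number as a block 3927 genes and 218 interactions were called, and the fold change of Slc25a47 was -1.85. Same-numbered KO and WT libraries had correlations of -0.17, -0.03, 0.25 and 0.06, within the range of differently numbered ones (-0.24 to 0.30). Pairing by number is not excluded by so few values, and the labels do not say what the numbers mark. With 4 libraries a group, small changes may be missed. The simulated data, in which far fewer genes changed than were called here, recovered 45 of 67 changes of 1.5-fold and held no smaller ones. The mitotic genes rest on few reads, and the silent genes on few reads in WT.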
